A study of Mus musculus with 22 samples.

Results

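Gene deserts are long stretches of chromosome that hold no annotated gene. Here they were the CpG cytosines of the autosomes that lay outside every RefSeq gene and pseudogene of mm10 and more than 50 kb from the nearest of them. Among the 1140639 positions covered by at least 10 reads in all 22 samples, 21640 met this rule, on 19465 distinct CpGs, since both strands of a CpG can be listed. They made up 1.94% of the 1115690 autosomal positions. For regional tests, desert positions were joined into 4865 regions, each a run of at least 2 positions no more than 100 bp apart, which together held 18773 of the members (86.8%). The other 2867 members had no such neighbour and entered only the results on single positions.

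DNA methylation was measured by enhanced reduced representation bisulphite sequencing (ERRBS), which reads fragments cut at CCGG sites, in mammary tissue of female mice. PyMT mice were heterozygous F1 daughters of FVB/N-Tg(MMTV-PyVT)634Mul/J males and FVB females. They carry the polyoma middle T oncogene behind the MMTV promoter, which drives it in the mammary epithelium. Bulk tumors or glands were taken from 2 PyMT mice at week 6 (hyperplasia), 3 at week 8 (adenoma/MIN, where MIN is mammary intraepithelial neoplasia), 3 at week 10 (early carcinoma) and 2 at week 12 (late carcinoma), and normal glands from 3 age-matched FVB females without the transgene at each week. Since whole tissue was measured, a change of methylation within cells and a change in the mix of cell types cannot be told apart.

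In normal mammalian tissue, CpGs far from genes are methylated on most copies, and this is kept up at each cell division by DNMT1 with UHRF1. In many tumors, large gene-poor domains that replicate late and touch the nuclear lamina lose part of this methylation, while CpG islands near genes can gain it. Isolated CpGs, and those flanked by A or T on both sides, are known to lose methylation most readily when maintenance falls behind division.

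Coverage of the deserts was sparse. Deserts spanned 14.9% of the sequenced autosomal bases and held 9.96% of the autosomal CpGs of the reference, and 0.959% of the desert CpGs were measured in every sample, against 4.48% of all autosomal CpGs. Mean coverage was 60.2 to 79.2 reads per position across the samples, and the median coverage of desert positions was 40 to 71 reads. The 20 pairs of samples within a group all differed by more than sampling noise, since the chi-square of their reads averaged 1.89 to 3.74 at a position. No library was counted as a repeat of another.

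The regions with the largest losses and gains show what a measured piece of desert looks like. The sequences below are the plus strand of mm10 (GRCm38, from RefSeq), 5′ to 3′, with 10 bases on each side of the region. The CpGs covered in all samples are in capitals. The first 8 are the regions with the largest loss and the last 2 those with the largest gain, by the rule given with their values further on.

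chr16:78474125-78474261: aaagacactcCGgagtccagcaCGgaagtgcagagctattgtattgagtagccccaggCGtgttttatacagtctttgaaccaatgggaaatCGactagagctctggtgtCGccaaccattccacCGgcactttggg
chr14:62222869-62222975: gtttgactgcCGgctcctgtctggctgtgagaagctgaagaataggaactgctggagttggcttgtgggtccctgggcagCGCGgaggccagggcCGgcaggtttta
chr9:5928343-5928417: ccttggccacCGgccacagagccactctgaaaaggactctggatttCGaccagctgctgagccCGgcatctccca
chr15:65362629-65362701: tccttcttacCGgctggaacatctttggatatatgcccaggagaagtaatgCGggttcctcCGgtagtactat
chr8:92190729-92190801: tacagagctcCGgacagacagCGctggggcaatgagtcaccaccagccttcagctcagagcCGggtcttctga
chr1:77999195-77999260: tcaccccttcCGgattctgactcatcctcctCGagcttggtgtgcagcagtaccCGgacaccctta
chr3:43196495-43196568: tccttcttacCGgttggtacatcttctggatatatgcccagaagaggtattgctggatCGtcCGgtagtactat
chr17:91566110-91566153: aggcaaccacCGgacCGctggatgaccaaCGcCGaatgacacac
chr16:5536590-5536696: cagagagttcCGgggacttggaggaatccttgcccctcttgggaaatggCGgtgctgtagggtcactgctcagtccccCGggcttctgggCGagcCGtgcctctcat
chr5:53379720-53379865: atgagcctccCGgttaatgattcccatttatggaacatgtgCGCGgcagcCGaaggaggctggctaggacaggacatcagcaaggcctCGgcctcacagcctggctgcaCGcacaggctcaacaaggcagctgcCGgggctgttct

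Of these 10 sequences, 9 held 2 CCGG sites, the site of the enzyme used to cut the DNA, and 1 held a single one. The sequences on chromosome 15 and chromosome 3 differed by 9 single-base edits over 74 bases (87.8% identity). In the reference every measured position of the chromosome 3 sequence was marked as repeat, and 50% of those of the chromosome 15 sequence, so reads of either could come from other copies of the same repeat. No other pair among the 45 reached an identity above 52%.

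Methylation of the deserts was lower in every PyMT sample than in any FVB sample, and the gap between the groups was wider at each later stage. At week 6 the mean over the members was 71.9% and 71.8% in the hyperplasia samples, and 76.8%, 76.8% and 76.9% in FVB. At week 8 the adenoma/MIN samples stood at 72.0%, 69.5% and 68.9%, and FVB at 76.5%, 77.0% and 77.0%. The first of these adenoma/MIN samples lay near the level of the hyperplasia samples and had the lowest median coverage of the deserts, 40 reads. At week 10 the early carcinoma samples stood at 68.1%, 70.0% and 69.8%, and FVB at 77.5%, 77.3% and 77.7%. At week 12 the late carcinoma samples stood at 67.3% and 67.6%, and FVB at 77.4%, 77.5% and 77.6%. The groups did not overlap at any week, and the FVB samples spanned only 76.5% to 77.7% over all weeks.

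The difference between PyMT and FVB means was −5.00 points (SE 0.0594) at hyperplasia, −6.69 points (SE 0.942) at adenoma/MIN, −8.19 points (SE 0.607) at early carcinoma and −10.04 points (SE 0.134) at late carcinoma. The SE of the weeks with 2 PyMT samples rests on very few values. No test is given for this mean, since it is a score over chosen members. Intergenic positions within 50 kb of a gene, 214047 in number and far less methylated, differed by −2.26 points at hyperplasia and −3.38 points at late carcinoma. The 880003 positions inside genes differed by −0.857 points at hyperplasia and −0.795 points at late carcinoma, so the gap of their mean was no wider at the last stage. That mean held opposite moves. Gene positions with a mean over 80% went from −0.175 to −1.28 points, and those at 20% to 80% from −5.78 to −6.56 points. Gene positions under 20% went from −0.119 to 0.342 points.

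**Figure D1:**
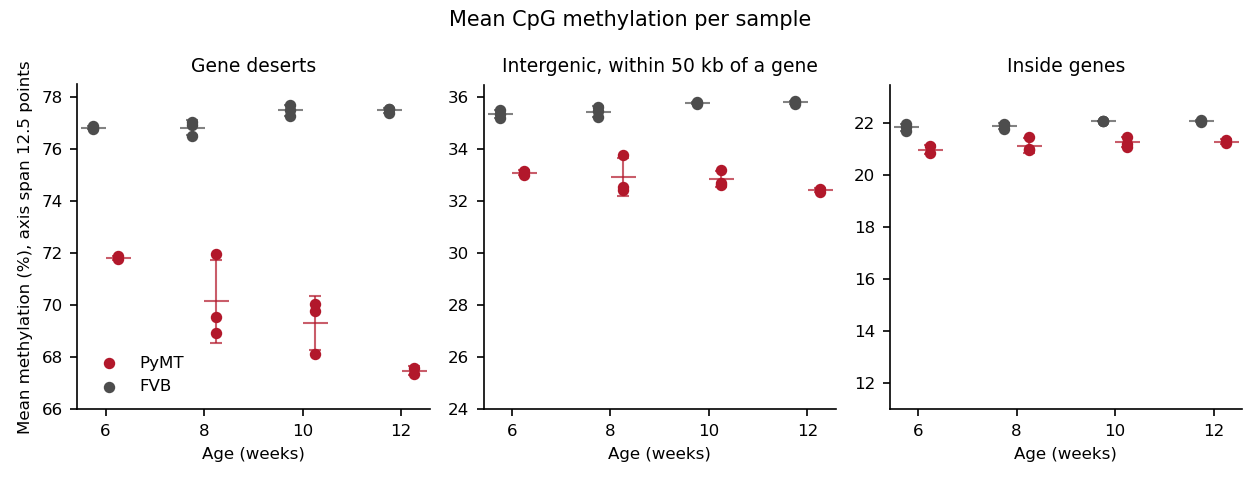
Mean methylation (%) of each sample against age in weeks, in gene deserts, in intergenic DNA within 50 kb of a gene and inside genes. Points are samples, bars the group mean and SD, and every panel spans the same number of points. In the deserts all 10 PyMT samples lie between 67.3% and 72.0%, below the 76.5% to 77.7% of FVB. The PyMT group mean there is lower at each later week, though single samples of different weeks overlap. Inside genes the groups lie close together.

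The loss showed as a move from high to intermediate levels. Of the members, 55.2% ± 1.30 (SD, n = 2) were methylated above 80% at hyperplasia and 45.3% ± 1.35 (SD, n = 2) at late carcinoma, against 64.4% ± 0.592 (SD, n = 3) and 65.9% ± 0.211 (SD, n = 3) in the FVB samples of the same weeks. Members at 20% to 80% made up 34.7% at hyperplasia and 44.5% at late carcinoma, against 27.8% and 26.3% in FVB. The share below 20% differed little between stages, at 10.1% and 10.2% in PyMT against 7.78% and 7.78% in FVB. At late carcinoma 74.3% of the members were lower in PyMT than in FVB, 41.5% by at least 10 points and 17.1% by at least 25 points, while 5.57% were higher by at least 10 points. Members lower at all 4 stages came to 42.6%, against 13.1% of all autosomal positions. That background was not matched for level: 71.9% of gene positions had a mean under 20% over all samples, against 7.74% of the members.

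Markers of cell types moved with the groups too. Promoters, taken as the 2 kb before and after a TSS, were measured for 9 of 10 listed epithelial genes, and 8 were called lower in PyMT and 0 higher by limma at an adjusted p under 0.05, against 15.2% lower and 15.5% higher among all 15935 promoters. Their mean ranged from 11.1% to 14.9% in PyMT and from 19.5% to 26.2% in FVB samples. Elf5, a regulator of alveolar cells, stood at 8.20% in PyMT and 34.8% in FVB, and Cldn4, a tight junction gene, at 12.2% and 40.6%. These were the largest differences of the 9, whose median was −3.15 points. Epcam, Cdh1, Krt8 and Cldn3, also called lower, stood at only 1.12% to 2.42% in PyMT and 2.86% to 4.66% in FVB. Of 4 adipocyte promoters measured of 6 listed, 2 were lower and 1 higher, and their mean was 41.4% to 50.5% in PyMT and 51.5% to 56.6% in FVB. Of 4 endothelial promoters of 6 listed, 2 were lower and 2 higher (37.7% to 44.3% in PyMT, 28.9% to 37.3% in FVB), and the 1 leukocyte promoter measured of 6 listed, that of Spi1, was higher (67.0% to 84.8% against 61.0% to 74.8%). Their part in the loss in the deserts was not tested.

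The lower level was seen on all 19 autosomes. On each of them the mean of the desert members was lower in all 10 PyMT than in all 12 FVB samples, and the difference was more negative after each of the 3 steps from hyperplasia to late carcinoma. Averaged over the 4 weeks it ran from −5.09 points on chromosome 12 to −10.1 points on chromosome 9. At late carcinoma it ran from −6.58 to −13.6 points.

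Within the deserts, the difference was larger at greater distance from the nearest gene. Averaged over the weeks it was −6.47 points for the 12649 members at 50 to 100 kb, −8.58 points for the 6281 at 100 to 200 kb, −9.56 points for the 2599 at 200 to 500 kb and −11.5 points for the 111 beyond 500 kb. At late carcinoma these values were −8.68, −11.5, −12.9 and −15.9 points. The 50 kb bound itself marked no step: positions just inside it, at 50 to 60 kb, differed by −6.65 points and those just outside, at 40 to 50 kb, by −6.81 points. The level in FVB rose along the same distances, from 73.8% at 50 to 100 kb to 85.8% beyond 500 kb. Among members whose mean over all samples was above 80%, the difference still went from −3.97 points at 50 to 100 kb to −5.15 points at 200 to 500 kb, and among those at 20% to 80% from −12.1 to −20.6 points. These classes were set with the PyMT samples included, so their values are descriptions.

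**Figure D2:**
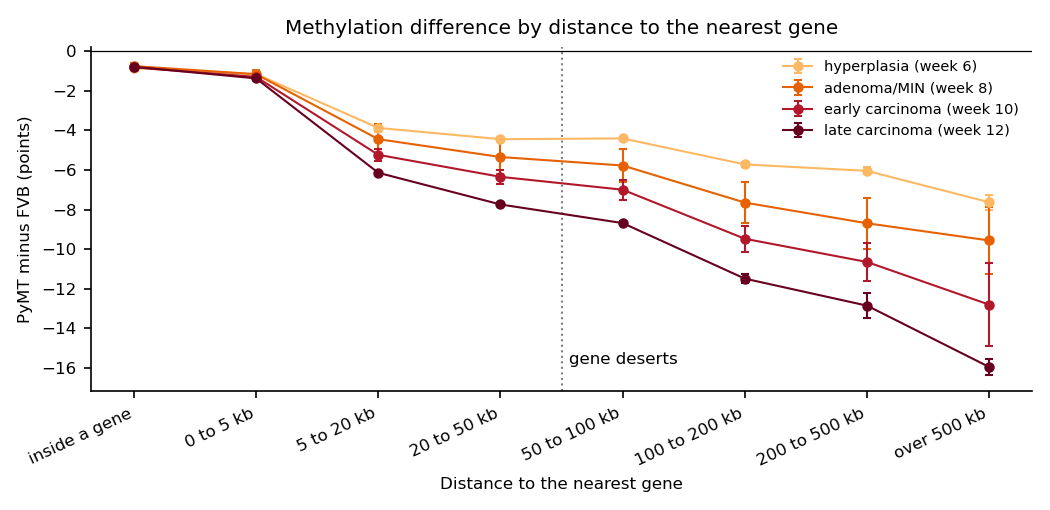
Difference in mean methylation (PyMT minus FVB, points) against the distance to the nearest gene, with a line for each stage. Bars are the SE of the difference over samples and the dotted line marks 50 kb. The lines of the 4 stages lie together inside genes and spread apart with distance, down to −15.9 points at late carcinoma beyond 500 kb.

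The gap between deserts and DNA near genes was smaller among positions of like make. When near-gene positions were weighted to the mix of the deserts in mean methylation, CpG density and repeat masking, their difference was −4.07 points (SE 0.145) at hyperplasia and −7.58 points (SE 0.107) at late carcinoma, beside −5.00 and −10.04 points in the deserts over the same strata. Positions inside genes, weighted likewise, differed by −3.28 points (SE 0.265) and −5.59 points (SE 0.104). The order desert, near-gene, gene thus held at both stages after weighting, with smaller gaps. The strata use the mean over all samples, PyMT included.

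The sequence around a CpG went with the size of its loss. Members with 1 to 5 CpGs in the surrounding 400 bp differed by −12.7 points averaged over the weeks, those with 6 to 10 by −8.24 points, those with 11 to 20 by −4.82 points and those with over 20 by −1.58 points. FVB levels in the first 3 of these classes were alike, at 77.4%, 76.3% and 80.5%, and the last stood at 68.3%. The 4989 members with no other CpG within 35 bp, 23.1% of all, differed by −12.9 points, and the rest by −5.85 points, from FVB levels of 75.3% and 77.7%. In each of these 6 classes all 10 PyMT samples lay below all 12 FVB samples.

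The bases beside the CpG went the same way with a smaller gap. Members with A or T both just before and just after the CG (8.35% of all) differed by −9.45 points and the others by −7.30 points. Only 113 members were both in such a context and alone within 35 bp, and these differed by −16.3 points. The 53.1% of members within a CCGG site differed by −8.77 points and the others by −6.02 points. Repeats were common: 49.3% of the members were soft-masked in the reference, against 13.6% of near-gene and 4.64% of gene positions. The masked members differed by −8.45 points from an FVB level of 85.7%, against −6.54 points from 68.9% for unmasked members. By mean methylation, members at 20% to 80% differed by −14.5 points, those above 80% by −4.36 points and those below 20% by 0.0448 points. These classes were set with the PyMT samples included, so a member with a loss could fall out of the top class. Their values are therefore descriptions.

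**Figure D3:**
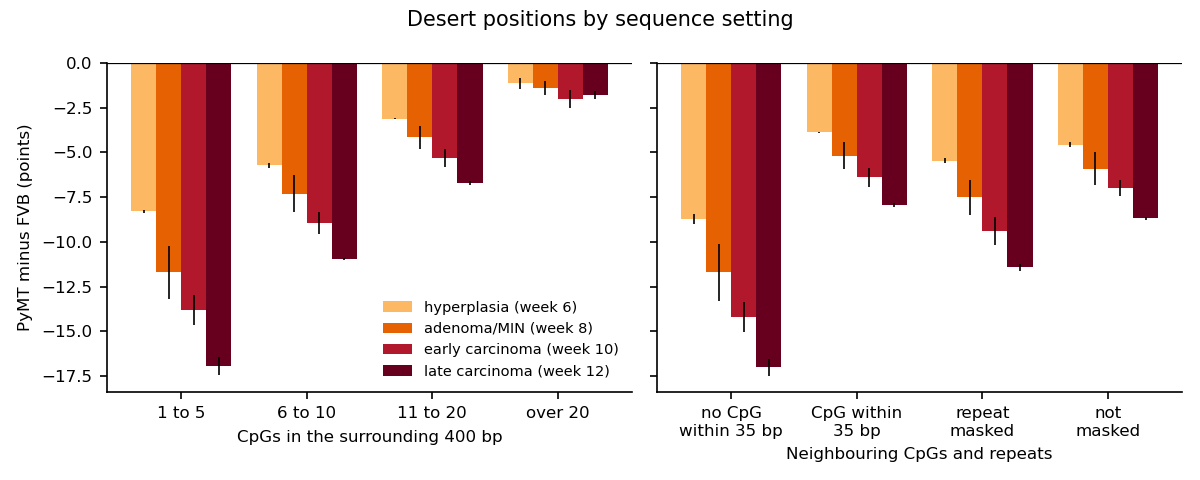
Difference in mean methylation of desert positions (PyMT minus FVB, points) by the number of CpGs in the surrounding 400 bp (left) and by neighbouring CpGs and repeat masking (right). Bars are stages, in order from hyperplasia to late carcinoma, with the SE over samples. Members with few or no CpGs around them show the largest differences at every stage, and those with over 20 CpGs the smallest.

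Single positions were tested next, by logistic regression of the read calls on group at each week. A differentially methylated CpG (DMC) had to pass a q-value of 0.01 over all positions tested and differ by 10 points or more between the pooled reads of the groups. At hyperplasia 3613 members were hypo-DMCs (16.7%), against 5.88% of all positions tested. The count was 5043 (23.3%, background 6.93%) at adenoma/MIN, 6299 (29.1%, background 8.22%) at early carcinoma and 6882 (31.8%, background 8.35%) at late carcinoma. Hyper-DMCs were few and stood near the background, with 632 members (2.92%, background 2.52%) at hyperplasia, 697 (3.22%, background 3.13%) at adenoma/MIN, 901 (4.16%, background 4.24%) at early carcinoma and 762 (3.52%, background 4.29%) at late carcinoma. The backgrounds here and below were not matched for methylation level, and a position near 0% cannot fall by 10 points. A mean under 20% over all samples was found for 7.74% of the members, 54.1% of near-gene and 71.9% of gene positions.

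This test treats the reads of a group as 1 pool. With a correction for the spread between mice, hypo-DMCs came to 6.36%, 9.31%, 16.9% and 19.0% of the members in stage order, against backgrounds of 2.45%, 2.97%, 5.04% and 4.99%. Without PyMT replicate 1 the share at hyperplasia was 10.7%, from the 1 PyMT sample that was left. In all, 9673 members (44.7%, against 12.6% of the autosomal positions covered in every sample) were hypo-DMCs at 1 or more stages and 1933 (8.93%, against 3.28%) at all 4. Of the 3613 at hyperplasia, 2682 were hypo-DMCs at late carcinoma as well, which is 74.2% of the earlier and 39.0% of the later list, beside 71.4% and 50.7% over all those positions. At late carcinoma alone 1413 members were hypo-DMCs (6.53%, against 1.48%). A hypo-DMC at 1 stage and a hyper-DMC at another was found in 77 members (0.356%, against 0.135%). The weekly comparisons share no samples.

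Regions were then tested with mice as the units, by limma on the log2 ratio of methylated to unmethylated reads over all 116474 autosomal regions. Over all weeks 2960 of the 4865 desert regions were called lower in PyMT (60.8%, against 32.7% of all regions), 287 were called higher (5.90%, against 15%) and 1618 were not called, at an adjusted p under 0.05. Among regions with a mean over 80%, PyMT included, 57.9% of desert and 32.4% of all regions were called lower. At 20% to 80% these shares were 66.2% and 49.8%. Of the 144 desert regions under 20%, 34.0% were called lower and 26.4% higher, against 13.4% and 13.9% of all such regions. The median difference of the desert regions was −6.37 points, beside −1.68 points in near-gene intergenic regions and −0.0894 points in genes. In 659 desert regions (13.5%) all 10 PyMT samples lay below all 12 FVB samples, against 9.07% of all regions, and in 43 (0.884%) all lay above, against 2.96%. With a difference of at least 10 points asked for as well, 35.1% were called lower, against 19.2% of all regions, and 3.41% higher, against 6.65%.

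By stage, the desert regions called lower numbered 645 at hyperplasia (13.3%, background 10.2%), 1378 at adenoma/MIN (28.3%, background 16.2%), 1783 at early carcinoma (36.6%, background 20.2%) and 1893 at late carcinoma (38.9%, background 20%). Those called higher numbered 63 (1.29%, background 3.25%), 119 (2.45%, background 6.47%), 175 (3.60%, background 8.66%) and 137 (2.82%, background 8.22%). Leaving out a replicate number, which takes up to 1 mouse from each week, moved these calls. The share called lower at hyperplasia was 4.44% without PyMT replicate 1, 7.54% without PyMT replicate 2 and 7.87% without FVB replicate 3. It was 18.1% at adenoma/MIN without PyMT replicate 3, and at late carcinoma 22.3% without PyMT replicate 1 and 24.3% without PyMT replicate 3. The call over all weeks was steadier, at 53.5% to 57.8% over the 6 replicate numbers left out in turn.

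Whether the gap itself grew with age was tested as the difference in slope between PyMT and FVB over the 6 weeks. The median desert region had a slope difference of −4.68 points over the 6 weeks, and 74.8% of the regions had a more negative difference at late carcinoma than at hyperplasia. The slope difference was negative in 75.4% of desert, 59.0% of near-gene intergenic and 51.9% of gene regions. No single desert region passed limma at an adjusted p under 0.05 (0 called, beside 0.000859% of all regions). Of the 4865, 643 had an unadjusted limma p under 0.05 with a more negative slope and 84 with a more positive one. These counts were 2484 and 1084 of 32775 near-gene regions and 4076 and 3546 of 78834 gene regions. On the percent scale 62 desert regions were called more negative and 6 more positive. The share over all regions was not counted on that scale. Of the other settings tried, 1 call each was made in runs of 3 or more positions and without PyMT replicate 3.

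**Figure D4:**
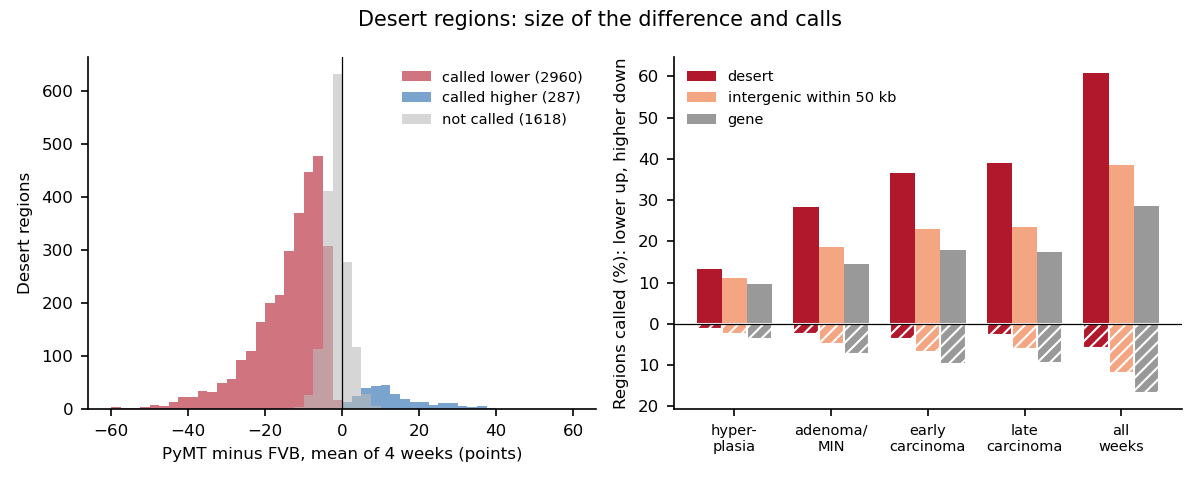
Left, histogram of the desert regions by difference over all weeks (PyMT minus FVB, points), split by limma call. Right, percent of regions called lower (solid, upward) or higher (hatched, downward) at each stage and over all weeks, for desert, near-gene intergenic and gene regions. The 2960 desert regions called lower form a broad hump below 0, beside a low one of the 287 called higher, and the desert bars are the tallest at every stage.

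Regions of different make were not alike. Of the 1217 desert regions with 1 to 5 CpGs in 400 bp, 70.0% were called lower, with a median difference of −11.0 points, and of the 272 with over 20 CpGs 40.4%, with a median of −2.55 points. Over all autosomal regions the same classes gave 51.1% and 7.06%. These classes were not matched for methylation level. In FVB, positions with over 20 CpGs in 400 bp stood at 68.3% in deserts, 3.74% near genes and 3.12% inside genes. Regions whose measured positions were all soft-masked as repeat were called lower in 64.9% and higher in 0.719% of 1807 cases, beside 55.1% and 1.86% of all autosomal regions of that kind. Those with no masked position were called lower in 53.1% and higher in 12.3% of 2015 cases, beside 30.4% and 16.7% of all autosomal regions of that kind.

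To see over how many separate deserts the loss extended, reads were summed over each stretch between neighbouring genes, with the part over 50 kb from a gene and the part within 50 kb kept apart. Members fell in 1881 such intervals, and 1241 desert parts held at least 5 positions, with 92.7% of the members. Of these, 985 were called lower over all weeks (79.4%, against 46.6% of the 12386 parts tested) and 54 higher (4.35%, against 9.2%), with a median difference of −7.50 points. In 408 desert parts (32.9%) all PyMT samples lay below all FVB samples, against 14.8% of all parts. By stage, the parts called lower numbered 352 at hyperplasia (28.4%, background 15.3%), 666 at adenoma/MIN (53.7%, background 27.3%), 797 at early carcinoma (64.2%, background 32.4%) and 832 at late carcinoma (67.0%, background 33.3%).

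The 5 longest of the 325 gene-free gaps with at least 20 desert positions, picked by length alone, show the range. The gap on chromosome 4 between Gm11919 and 4930556G01Rik spans 1468 kb, and its 38 members had 72.0% to 82.9% methylation in PyMT and 80.3% to 86.4% in FVB, so the groups overlapped. Its difference was −5.52 points over all weeks (limma log2 ratio −0.48, SE 0.0947, adjusted p = 0.000154), going from 1.16 points at hyperplasia to −9.38 at late carcinoma. On chromosome 15 the 1311 kb between Gm9630 and 4930557F08Rik held 80 members at 66.4% to 76.7% in PyMT and 78.5% to 81.2% in FVB, without overlap (−8.96 points, adjusted p = 1.73e-07 by limma). The 1283 kb on chromosome 14 between Gm19050 and Gm24774 held 59 members at 75.5% to 84.1% in PyMT and 83.9% to 86.4% in FVB, which just overlapped (−6.63 points, adjusted p = 3.94e-06 by limma).

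The chromosome 3 gap between Gm7899 and Gm9723, 1272 kb long, showed a larger difference, with 30 members at 68.8% to 78.9% in PyMT and 83.5% to 88.7% in FVB (−12.9 points, adjusted p = 1.45e-09 by limma). The 1219 kb on chromosome 5 between Gm7931 and Gm17824 differed most of the 5, with 39 members at 59.6% to 72.8% in PyMT and 79.1% to 83.2% in FVB. Its difference went from −10.2 points at hyperplasia to −20.6 points at late carcinoma (−15.4 points over all weeks, adjusted p = 1.10e-09 by limma). The names with Gm or Rik are predicted genes and cDNA clones, used here as landmarks only. Of all 325 such gaps, 291 had a negative difference (89.5%) and 267 were called lower (82.2%), against 69.6% and 37.5% of all 3398 parts with at least 20 positions.

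Near-gene DNA beside a desert was lower as well. In 724 intervals both parts held at least 5 positions. The desert parts had a median difference of −6.93 points and the near-gene parts of the same intervals −5.97 points, and 520 of these near-gene parts (71.8%) were called lower. Taken interval by interval, the desert difference minus the near-gene difference had a median of 0.146 points. The desert part had the more negative difference in 49.9% of the intervals. Testing the 2 parts of an interval against each other, the desert part changed more negatively in 206 intervals (28.5%) and more positively in 200 (27.6%) by limma at an adjusted p under 0.05. At late carcinoma these counts were 100 (13.8%) and 91 (12.6%). Near-gene parts in intervals with no desert member had a median difference of −1.15 points. Among parts with a mean methylation of at least 60%, the medians were −7.58 points for desert parts, −6.81 points for near-gene parts beside a desert and −4.73 points for near-gene parts of intervals without one. In the same order, 82.1%, 78.1% and 61.4% of these parts were called lower.

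A stage trend passed limma in 7 desert parts (0.564%, against 0.202% of all parts), all more negative, and 0 were more positive (0.0404% of all parts). An unadjusted limma p under 0.05 was found in 328 of the 1241 desert parts toward loss and in 8 the other way. Among the 11145 near-gene parts these counts were 1051 and 311. Between 0 and 3 desert parts passed when a replicate number was left out, 12 passed without FVB week 8 replicate 2, and 0 passed with the replicate number as a block. On the percent scale 54 desert parts were called more negative and 2 more positive. The share over all parts was not counted on that scale.

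Regions were named by rule from the 2021 desert regions with at least 4 positions on at least 2 CpGs. The 8 largest losses come from 294 that were called lower without overlap of the groups, and the 4 largest gains from 30 under the mirrored rule. Both sets were chosen by their values, which are therefore a description. Adjusted p-values are from limma over all regions and all weeks.

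The largest loss was at chr16:78474135-78474251, 6 CpGs lying 50.3 kb from Gm25038 and 66.1 kb from D16Ertd472e. PyMT samples stood at 9.31% to 28.9% (median 17.2%) and FVB at 55.1% to 84.9% (median 76.4%), a difference of −55.5 points (adjusted p = 3.75e-10). It was as large at hyperplasia (−55.2 points) as at late carcinoma (−57.3 points). At chr14:62222879-62222965, 51.9 kb from Gm35419 and 53.3 kb from Dleu7, PyMT stood at 6.67% to 24.9% and FVB at 60.2% to 74.6% (−51.9 points). Here too most of the gap was present at hyperplasia (−45.9 points).

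At chr9:5928353-5928407 the difference was larger at late carcinoma. Hyperplasia samples stood at 37.1% and 44.0% and late carcinoma samples at 9.66% and 22.4%, with FVB at 63.4% to 86.5%, and the difference went from −31.5 to −64.2 points. At chr3:43196505-43196558, within the 1272 kb gap described above, it went from −35.1 to −57.3 points, with PyMT at 29.2% to 54.5% and FVB at 73.8% to 96.4%. Its repeat relative at chr15:65362639-65362691 showed no such order, with −51.3 points at hyperplasia and −53.0 points at late carcinoma, PyMT at 9.02% to 22.4% and FVB at 37.8% to 76.7%.

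The other named losses included chr8:92190739-92190791 (PyMT 7.25% to 24.8%, FVB 44.4% to 75.0%), 135 kb from Crnde, a long noncoding RNA gene. Another was chr1:77999205-77999250 (PyMT 14.8% to 40.5%, FVB 64.9% to 95.2%), 83.7 kb from Gm33030 and 102 kb from Pax3, a developmental transcription factor. At chr17:91566120-91566142 PyMT stood at 10.2% to 37.5% and FVB at 54.5% to 79.2%, at a mean coverage of 24.2 reads, the lowest of the 8. The genes are named for position only.

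The largest gain was at chr16:5536600-5536685, 51.6 kb from Gm41416 and 348 kb from Rbfox1, a splicing regulator gene. PyMT samples stood at 55.3% to 78.7% and FVB at 22.7% to 45.1%, a difference of 36.3 points (adjusted p = 8.63e-09). At chr5:53379730-53379855, 101 kb from Smim20, PyMT stood at 57.6% to 79.1% and FVB at 26.6% to 53.9% (33.5 points), and at chr15:27178478-27178537 at 60.8% to 81.5% against 29.5% to 51.3% (32.7 points). At chr8:116120246-116120315 the difference went from 15.8 points at hyperplasia to 40.3 points at late carcinoma, with PyMT at 78.5% to 91.6% and FVB at 37.7% to 75.2%. No measured position of these 4 regions was soft-masked.

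**Figure D5:**
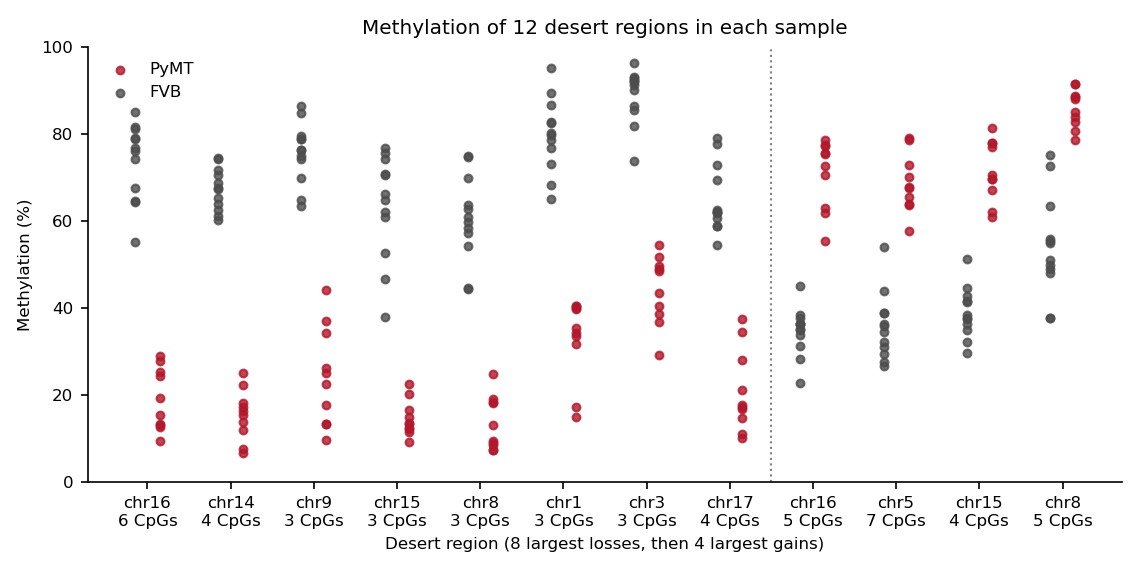
Methylation (%) of each sample in the 8 desert regions with the largest loss (left of the dotted line) and the 4 with the largest gain (right). Points are samples, 10 PyMT and 12 FVB per region, named by chromosome and number of CpGs. The groups do not overlap in any of the 12, as the rule asked, and the PyMT samples of the first region lie at 9.31% to 28.9%.

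The 4 regions farthest from any gene were picked by position alone and lie together in the chromosome 15 gap between Gm9630 and 4930557F08Rik, 601 to 642 kb from the nearer of these genes. Their differences were unlike each other. At chr15:15135712-15135796, 642 kb from a gene, PyMT stood at 37.3% to 56.2% and FVB at 61.0% to 67.0% (−19.0 points, adjusted p = 2.84e-07). The neighbour at chr15:15101303-15101368 stood at 86.6% to 94.8% in PyMT and 89.0% to 94.9% in FVB (−0.851 points, adjusted p = 0.614), and that at chr15:15090416-15090479 at 67.6% to 80.1% and 64.0% to 79.8% (2.10 points, adjusted p = 0.512). At chr15:15067473-15067539 PyMT stood at 81.8% to 90.7% and FVB at 91.3% to 97.8% (−8.70 points, adjusted p = 9.39e-06).

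The 4 regions with the most CpGs, also picked without regard to values, stood low in FVB, and none was called lower. The one with the most CpGs, chr12:19175747-19176241, with 54 between Gm9158 and Gm40843, was called higher. FVB stood at 6.01% to 10.6% and PyMT at 14.2% to 36.1%, and the difference went from 10.1 points at hyperplasia to 27.9 points at late carcinoma (adjusted p = 8.75e-09). At chr11:84642490-84642874, 74.1 kb from 1700109G15Rik and 107 kb from Lhx1os, PyMT stood at 2.90% to 6.23% and FVB at 1.20% to 2.52% (2.42 points, called higher, adjusted p = 8.20e-06). At chr8:92460319-92460604, between the homeobox genes Irx5 and Irx6, PyMT stood at 0.455% to 1.94% and FVB at 0.329% to 1.10% (0.606 points, called higher, adjusted p = 0.00425). The fourth, chr2:172728233-172728837, stood near 0 in both groups, at 0.363% to 1.54% and 0.617% to 1.94% (adjusted p = 0.331).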

How the data were processed

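Per the labels and the study's methods, the authors sequenced ERRBS libraries, aligned the reads with Bismark to mm10 (version not given in the sources used here) and deposited per sample the raw read count at every CpG cytosine with 10 or more reads, strand by strand and not normalized, together with the methylated percent of these reads. Methylated and unmethylated reads were recovered as coverage times percent, rounded. Because mm10 is of another mouse strain, a C-to-T difference of FVB would read as unmethylated in both groups. A methylation percent covers reads, not molecules, so duplicates are not told apart, and no sequencing batch is named in the labels. Positions were placed against the 46709 autosomal genes and pseudogenes of the RefSeq annotation of GRCm38.p6.

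Samples were grouped by label. The study left out 2 outliers, which were not analysed here. Levels are unweighted means over positions. Position tests were likelihood ratio tests with Benjamini-Hochberg q-values over all positions covered in the comparison. Region and interval tests used limma 3.58.1 (R 4.3.3, mean-variance trend) on log2((methylated + 1)/(unmethylated + 1)) over 8 group means, adjusted over all autosomal regions or all intergenic parts. Replicates are separate mice. Both tests were tested on simulated data. For the position test these held no spread between mice, unlike the real samples, so its false calls under such spread were not tested. Regions were named as the 8 largest losses and 4 largest gains called without overlap, the 4 farthest from a gene and the 4 with the most CpGs, and sequences are shown for the first 10. The members and lists were chosen with earlier results of these data known. The comparison of parts within an interval, their stage trend and the weighting to the desert mix were added after seeing the data, as was a coverage ceiling at the 99.9th percentile. The values of 1 desert part with a stage trend are not reported here. Python 3.11.15, NumPy 2.4.6, SciPy 1.17.1 and pandas 2.3.3 were used.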

Additional observations from a re-analysis of the deposited data

Results flagged for a closer look

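In 7 desert parts the slope over the 6 weeks differed between PyMT and FVB by limma over 12386 intergenic parts, and those described here had adjusted p from 0.0365 to 0.0453. The change over the 6 weeks in PyMT relative to FVB was −19.8 points in the part between Gm3351 and Gm22451 on chromosome 3, where PyMT went from 70.9% to 53.9% and FVB from 79.6% to 81.9%. On chromosome 5 it was −21.9 points between Gm34029 and Gm34097 (PyMT 36.5% to 20.3%, FVB 41.1% to 48.6%) and −24.6 points between Gm32736 and Gm5987 (PyMT 82.4% to 64.9%, FVB 72.6% to 82.1%). It was −21.1 points between Gm20074 and Gm6181 on chromosome 7 (PyMT 57.7% to 38.3%, FVB 69.2% to 71.4%) and −19.3 points between Gm24921 and Gm5653 on chromosome 12 (PyMT 81.5% to 61.3%, FVB 86.6% to 88.1%).

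The steepest of those described was −29.8 points in the 5 positions between Fam184a and Man1a on chromosome 10. There PyMT went from 68.0% to 44.6% and FVB from 78.7% to 86.6%. In each of the parts named here FVB also rose over the same weeks, so the slope difference holds a change in both groups. These calls depended on single mice and on the scale, as given with the processing, and none of the 7 passed with the replicate number as a block.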

How the results depend on the processing

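Every alternative kept the sign of the desert mean difference at each stage, and of the values for whole comparisons 382 stayed within 1.5 times of the reported share or, for a mean, within the spread between mice, and 74 did not. The cause of the moves was not tested. Members more than 100 kb from a gene differed by −5.84, −7.97, −9.86 and −11.9 points in stage order, with hyper-DMC shares of 1.58%, 1.45%, 1.78% and 1.47%, regions called higher at 2.75% over all weeks and 0.540%, 1.03%, 1.72% and 1.42% by stage, and 2.05% of desert parts called higher. With only curated genes, deserts grew to 62616 positions, and the mean difference was −5.59, −6.67 and −8.07 points from adenoma/MIN on, the hyper-DMC share at late carcinoma 5.53%, and regions called higher 8.86% over all weeks, 1.98% at hyperplasia, 3.83% at adenoma/MIN and 4.62% at late carcinoma. With the overdispersion correction hypo-DMC shares were 6.36%, 9.31%, 16.9% and 19.0% and hyper-DMC shares 0.864%, 0.961%, 2.01% and 1.81%. At 25 points or more they were 6.99%, 9.58%, 13.1% and 16.8%, and 0.887%, 0.980%, 1.57% and 1.65%. At 10 points or more 35.1% of regions were called lower and 3.41% higher over all weeks.

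The region trend calls were 1.27% lower and 0.123% higher on the percent scale and 0.0335% lower in runs of 3 or more positions. The interval trend calls were 4.35% lower and 0.161% higher on the percent scale, 0.903% lower with at least 10 positions, 0.292% at 20 reads, 0.250% with strands merged and 0.176% with curated genes. Same-numbered PyMT and FVB samples deviated with a correlation of −0.0396 to 0.0297 in 10 pairs, beside −0.0430 to 0.0541 in 20 pairs of unlike number. In groups this small the values are tied to each other, and with 2 PyMT samples they mirror each other. They cannot decide whether the numbers pair samples. With the replicate block, 59.9% of regions were called lower over all weeks, and the interval trend gave 0%.

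Leaving out a replicate number or FVB week 8 replicate 2 gave mean differences of −7.60 to −6.09 points at adenoma/MIN, hypo-DMC shares of 10.7% to 16.7% and hyper-DMC shares of 1.39% to 2.92% at hyperplasia. It gave regions called lower at 4.44% to 14.9% at hyperplasia, 18.1% to 26.2% at adenoma/MIN and 22.3% to 41.0% at late carcinoma, and called higher at 0.370% to 1.40%, 1.44% to 2.06% and 1.48% to 2.96%, region trend calls of 0% to 0.0206%, and interval trend calls of 0% to 0.967%. These fits leave 1 PyMT mouse in some weeks, which is assumed to vary like the others. The upper ends of the DMC shares at hyperplasia are the main values. Leaving out PyMT replicate 3 or FVB week 8 replicate 2 takes no sample from week 6. With an FVB replicate number left out, the hypo-DMC share at hyperplasia was 14.5% to 15.4%. Of the named regions, only chr15:15101303-15101368 turned sign, with −2.32 to 0.228 points over the samples left out, the last without PyMT replicate 3. At a coverage minimum of 10 reads a single position resolves only large differences, and under 1% of the desert CpGs were measured.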
